A study of Mus musculus with 12 samples.

Results

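The genes described here encode 9 cell surface proteins, grouped here as luminal surface glycoproteins. They are the membrane mucins Muc1, Muc4 and Muc20, the adhesion molecule Ceacam1, the lipid-anchored proteins Psca, Ly6d, Ly6a and Cd24a, and the receptor Cd200r3. The genes were taken by symbol from a table of 23337 genes. The set was chosen by the kind of protein and partly by measured counts: Ceacam1 and Cd200r3 were selected on their rise in read count with quiescence. Therefore quiescence in control cells is a description for the whole set, and for Ceacam1 and Cd200r3 so is every contrast that includes quiescent cells, with no p-value given. All 9 were among the 12406 genes that passed the filter on low counts, although Muc4 had 96 reads in all and Ly6d between 2 and 13 reads in a library. Muc4 reached the filter's minimum count of 10 only in quiescent libraries, so its rise with quiescence is also a description.

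RNA was sequenced from NU1, a line of normal mouse urothelial cells that became immortal on serial passaging. There were 4 groups of 3 libraries: proliferating control, proliferating knockdown, quiescent control and quiescent knockdown. Control cells carried the hairpin shNT (genotype WT in the labels) and knockdown cells the hairpin sh4 (Stag2-KD), so the knockdown rests on 1 hairpin in 1 line. Stag2 is part of cohesin, a ring-shaped complex that folds chromosomes. Quiescent cells had reached confluence and then received rosiglitazone at 1 µM, a PPAR gamma agonist, and erlotinib at 0.5 µM, an inhibitor of the EGF receptor kinase. They were labelled differentiation day 7. Confluence, both drugs and time therefore cannot be told apart in any comparison of the states. Each experiment, numbered 5, 7 or 9, gave 1 library to every group and was also a batch in the labels.

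The luminal face of the bladder lining carries a coat of sugar-bearing proteins. Membrane mucins hold long stretches dense in O-linked sugars, built by GalNAc transferases and then extended, branched or capped by other enzymes. Ly6-type proteins and Cd24a are held in the outer leaflet by a glycosylphosphatidylinositol (GPI) anchor, whose synthesis starts with the Piga complex. Cd200r3 belongs to the CD200 receptor family, is best known from mast cells and basophils, and signals through the adaptor Tyrobp.

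Library totals ran from 14524429 to 21987539 counts. Mean Stag2 was 133 CPM (counts per scaled library total, using TMM factors) ± 17.4 (SD, n = 3) in proliferating controls and 27.6 ± 4.96 (SD, n = 3) with the hairpin, and 121 ± 11.3 against 12.1 ± 2.95 in quiescent cells. Mki67, a marker of cycling cells, was at 185 to 225 CPM in proliferating controls, 0.552 to 7.93 in quiescent controls and 5.49 to 33.6 in quiescent knockdown cells. The keratin genes Krt7, Krt8, Krt18 and Krt19 were abundant, and the summed level of 18 urothelial and epithelial markers was 12326 to 23412 CPM. Defining genes of the mature luminal cell were not: Upk3a had 1 read in the 12 libraries, and the highest level was 3.94 CPM for Upk1a, 2.23 for Upk1b and 1.45 for Upk2. Trp63, which marks basal cells, was at 0. Of 15 tested markers, 2 rose and 2 fell with quiescence in controls, against 8.33% and 11.7% of all tested genes, by edgeR's test. In knockdown cells 2 rose and 3 fell, against 7.59% and 10.8%. In a fit with a term for the experiment, 5 rose and 3 fell in controls, against 16.8% and 18.5%. That fit gave 6 higher and 3 lower in knockdown cells, against 15.9% and 17.2%. Without that term Elf3 rose in both, Gata3 in controls and Krt19 in knockdown cells. With it Elf3, Gata3, Krt19 and Foxa1 rose in both, Cdh1 in controls, and Krt8 and Krt18 in knockdown cells. Krt7 fell in controls with the term only. The scarce basal keratins Krt5 and Krt14 fell in both, and Epcam in knockdown cells. The word luminal is a name for the set and not a finding about these cells, whose stage was not tested.

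RefSeq promoters were at hand for 5 of the 9 genes. The 250 bases before the start are shown for Ceacam1, Cd200r3, Muc4 and Muc20, the 4 of them past the threshold for quiescence in knockdown cells in the fit that takes the experiment into account. Ceacam1 and Cd200r3 were selected on their rise, and Muc4 passed the filter only through quiescent libraries. The threshold thus only sets which promoters are shown. All run 5′ to 3′ on the gene's strand in build GRCm38.p6, with matches to the motifs named next in capitals: Ceacam1 from chr7:25477626-25477875 (minus strand), Cd200r3 from chr16:44943428-44943677 (plus), Muc4 from chr16:32735636-32735885 (plus) and Muc20 from chr16:32797436-32797685 (minus).
Ceacam1: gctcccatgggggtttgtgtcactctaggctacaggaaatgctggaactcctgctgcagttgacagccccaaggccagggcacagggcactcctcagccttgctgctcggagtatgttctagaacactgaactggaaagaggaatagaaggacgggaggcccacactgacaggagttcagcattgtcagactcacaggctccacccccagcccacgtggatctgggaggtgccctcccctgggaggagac
Cd200r3: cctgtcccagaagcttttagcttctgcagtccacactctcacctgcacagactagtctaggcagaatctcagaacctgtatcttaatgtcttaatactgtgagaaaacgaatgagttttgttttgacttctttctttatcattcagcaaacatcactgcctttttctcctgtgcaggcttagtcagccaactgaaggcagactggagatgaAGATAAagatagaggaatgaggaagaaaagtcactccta
Muc4: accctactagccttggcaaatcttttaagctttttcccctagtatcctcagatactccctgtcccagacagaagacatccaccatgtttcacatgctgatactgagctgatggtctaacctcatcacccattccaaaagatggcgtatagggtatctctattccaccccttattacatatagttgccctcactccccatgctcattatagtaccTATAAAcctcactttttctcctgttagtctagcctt
Muc20: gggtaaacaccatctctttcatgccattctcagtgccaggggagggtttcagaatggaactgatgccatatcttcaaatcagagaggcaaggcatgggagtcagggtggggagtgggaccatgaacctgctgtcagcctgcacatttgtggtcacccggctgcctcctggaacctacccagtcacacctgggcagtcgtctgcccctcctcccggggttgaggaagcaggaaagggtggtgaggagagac

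Windows of 300 bases (250 before and 50 after the start) were searched on both strands for sequences that known factors bind. The half-site of nuclear receptors, searched as AGGTCA, was in 16.3% of 32851 promoters of that length, and its repeat after 1 base, which also counts as a half-site, in 0.0396%. The AP-1 motif was searched as TGANTCA and was in 7.81%. The GATA motif was searched as AGATAA and was in 11.2%. The grainyhead motif was searched as AACCNGTT and was in 2.09%. The TATA box was searched as TATAAA and was in 13.6%. Apart from the repeat, no motif contains another. Cd200r3 held the GATA motif from -39 to -34, counted from the start site. Muc4 held the TATA box from -36 to -31, and the GATA motif on the reverse strand at 7 to 12 and at 31 to 36 after the start. Muc1 held the TATA box from -31 to -26, and the grainyhead motif on the reverse strand from -180 to -173. The Ceacam1 and Muc20 windows held none of the motifs, and the nuclear receptor half-site and the AP-1 motif were in none of the 5. Base composition differed too: G and C made up 42% of the 250 bases in Cd200r3 and 43.6% in Muc4, against 58.8% in Ceacam1, 57.2% in Muc20, 54.8% in Muc1 and a median of 52.4% over all promoters.

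**Figure D1:**
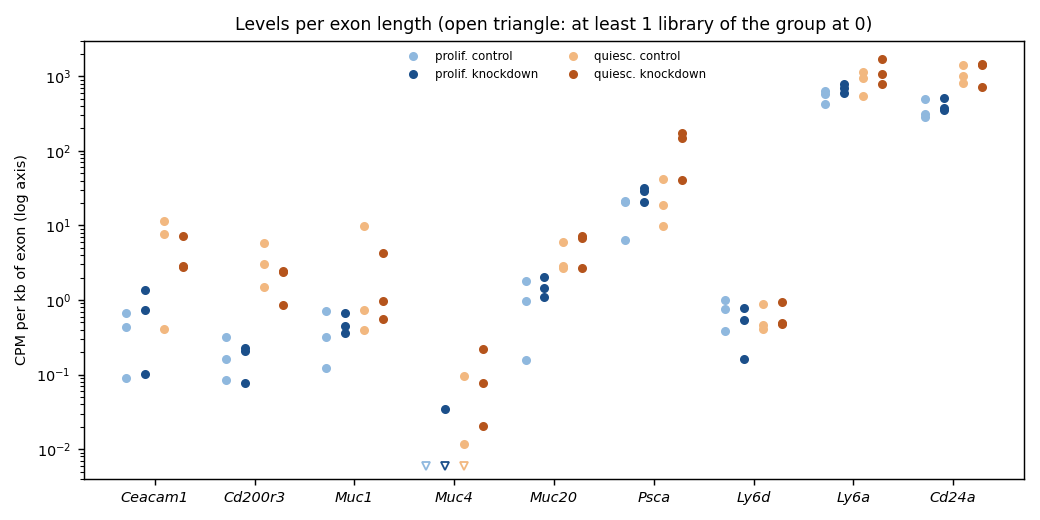
Level of each gene per kilobase of exon (CPM per kb, log axis) in the 4 groups, each point 1 library. By group mean, Ly6a and Cd24a lie highest in every group, Psca comes next, and the other 6 lie lower, with Muc4 at the bottom. In quiescent controls the ranges of Psca and Ceacam1 overlap.

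Levels differed widely between the genes. Per kilobase of exon, Ly6a stood highest in proliferating controls at 549 CPM per kb ± 106 (SD, n = 3), followed by Cd24a at 362 ± 111, and their ranges overlapped. In quiescent controls the order was turned, with Cd24a at 1078 ± 296 and Ly6a at 880 ± 313, again overlapping. Psca was the third in all 4 groups, from 16.2 ± 8.58 CPM per kb in proliferating controls to 120 ± 70.1 in quiescent knockdown cells, and below the range of the gene above it in each. In quiescent controls its lowest library, at 9.96 CPM per kb, was below the highest of Ceacam1, at 11.3. Ceacam1, Cd200r3, Muc1, Muc20 and Ly6d had group means of 0.17 to 6.42 CPM per kb, and most neighbours among them overlapped. Muc4 was last in every group, at 0.106 ± 0.103 CPM per kb where it was highest.

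**Figure D2:**
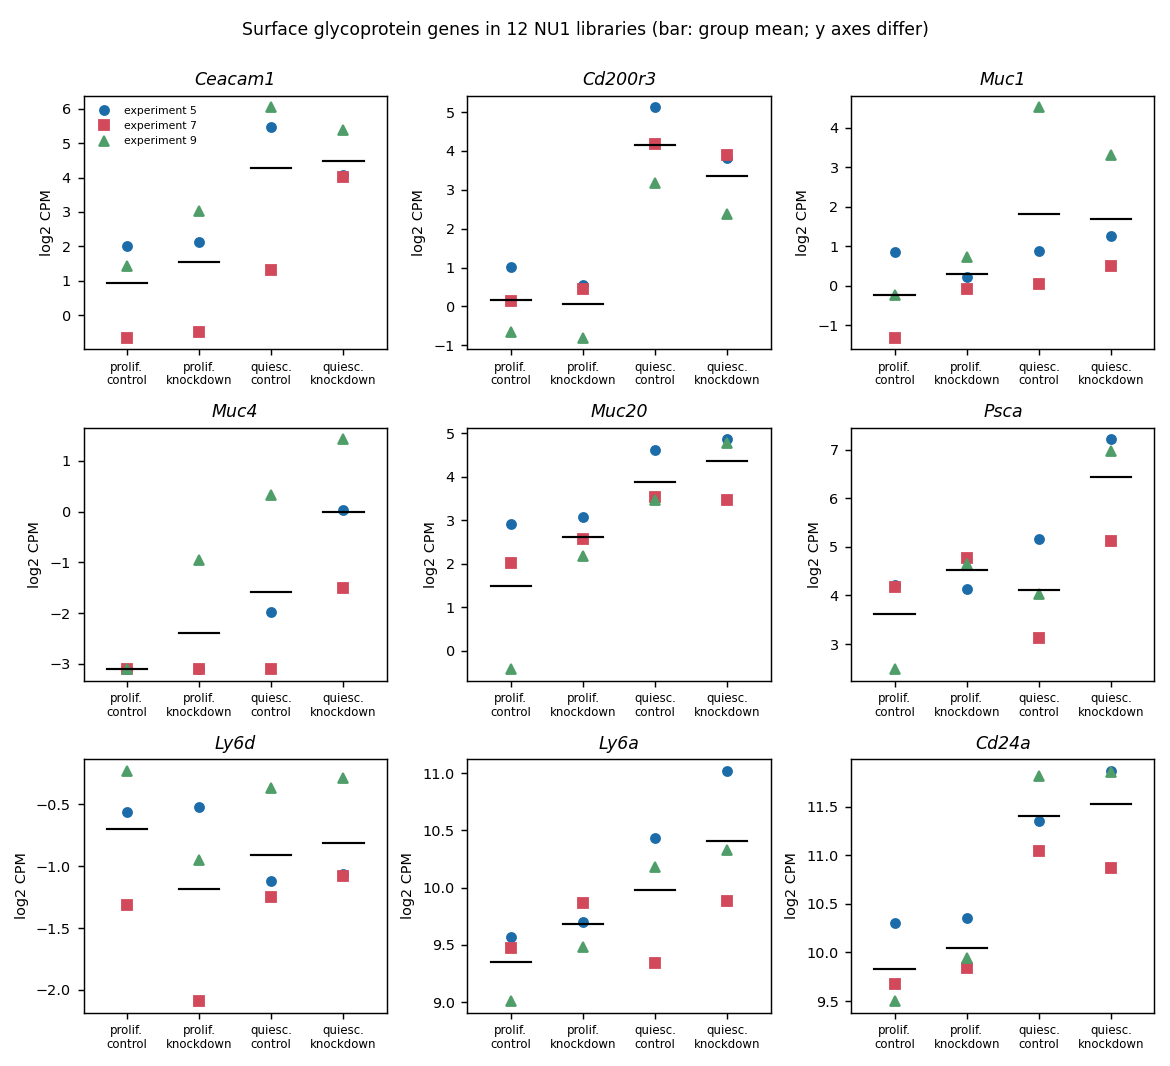
CPM of each gene (log axis, 1 panel a gene) in the 12 libraries, by group and with a symbol for each experiment. Cd200r3, Muc20 and Cd24a separate the quiescent from the proliferating libraries in both genotypes, while Muc1 is high only in the quiescent libraries of experiment 9.

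Quiescent control cells had more mRNA for 8 of the 9 genes than proliferating controls by the sign of the fitted change, against 50.4% of all tested genes. The median log2 fold change of the 9 was 1.96, against 0.00 over all tested genes. By edgeR's quasi-likelihood test with Benjamini-Hochberg adjustment, 3 were past the threshold of 0.05, all higher: Ceacam1, Cd200r3 and Cd24a. With a term for the experiment it was 6, adding Muc1, Muc4 and Muc20. Over all tested genes 8.33% were called higher and 11.7% lower, and 16.8% higher with that term. Since the rule used this contrast, nothing is read from these counts. In bulk RNA, fewer cells that express a gene and less RNA in each cell cannot be told apart.

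In knockdown cells the same step was tested for the 7 genes that were not selected on their rise. Cd24a and Psca rose, 2 of 7 by edgeR's test at an adjusted p under 0.05, where 7.59% of all tested genes were called higher and 10.8% lower. With the experiment as a term Muc4 and Muc20 also rose, 4 of 7, against 15.9% of all genes. The rise of Muc4, counted here and among the 6 below, is a description, since it passed the filter only through quiescent libraries. Higher in 3 of 3 experiments were 6 of the 7, against 28.2% of all tested genes, and 4 of the 7 had quiescent libraries that all lay above the proliferating ones, against 18.1%. Cd200r3 was past the same threshold and Ceacam1 was past it with the experiment term, which is a description, as is the median log2 change of 1.96 over the 9. The quiescence contrasts of control and knockdown cells share no library, but their libraries come from the same experiments.

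**Figure D3:**
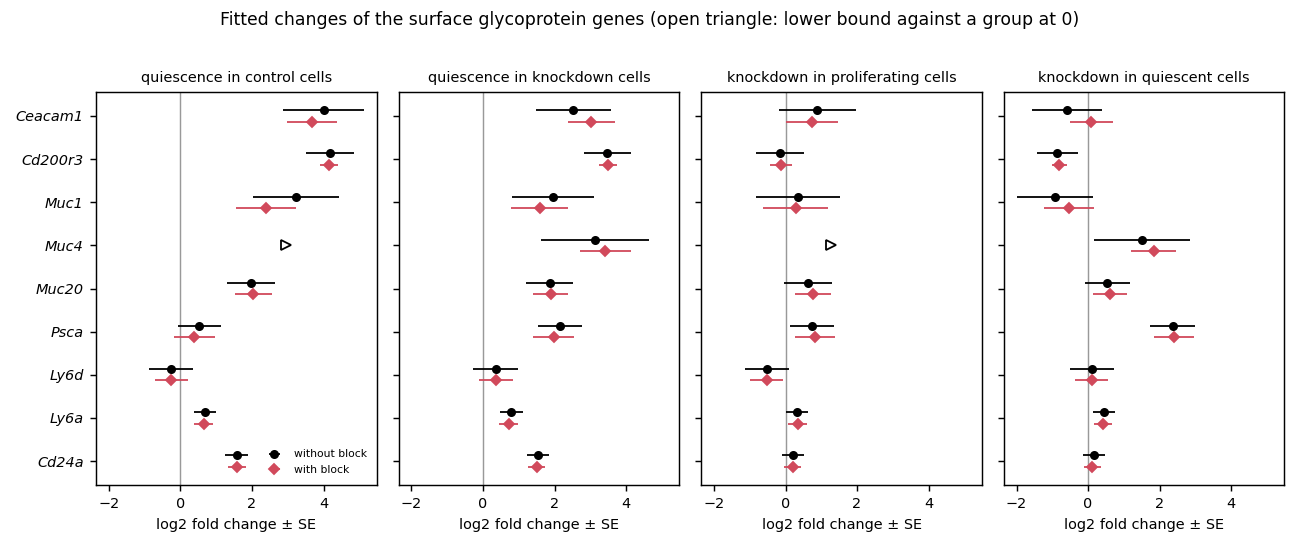
Fitted log2 fold changes ± SE of the 9 genes in 4 comparisons, from the fit without (black circles) and with (red diamonds) a term for the experiment; open triangles are lower bounds for Muc4 against a group with no read. The error of Cd200r3 is much narrower with that term in both quiescence panels (SE 0.25, against 0.67 and 0.66 without), and Psca stands apart to the right with knockdown in quiescent cells.

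Muc1 is the widespread membrane mucin of epithelial surfaces, with a long sugar-bearing outer part. Its gene lies on chromosome 3 (GRCm38 chr3:89229057-89233381, plus strand). Proliferating controls had 1.68, 0.289 and 0.739 CPM in experiments 5, 7 and 9, and proliferating knockdown cells 1.05, 0.834 and 1.55. Quiescent controls had 1.73, 0.918 and 22.9 CPM, and quiescent knockdown cells 2.27, 1.31 and 9.90. The 2 quiescent libraries of experiment 9 were thus the high ones. Those of experiment 7 lay within the proliferating range, and those of experiment 5, at 1.73 and 2.27 CPM, above its top of 1.68. Within experiments, quiescent over proliferating control came to 1.03, 3.18 and 31-fold, and in knockdown cells to 2.16, 1.57 and 6.39-fold. The rise in knockdown cells did not pass (log2 1.96, SE 1.14, adjusted p = 0.255 by edgeR's test; 0.151 with the experiment term), and the log2 change was 0.65 without the quiescent knockdown library of experiment 9. In controls it was 3.23, and 0.54 without the quiescent control library of that experiment.

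Other genes were high in the same experiment. The summed level of 25 interferon-stimulated genes was highest in experiment 9 in all 4 groups, at 847 CPM in quiescent controls against 307 in experiment 5 and 273 in experiment 7. In quiescent knockdown cells it was 944 against 317 and 333. Of the 10301 genes searched, Lgals3bp, a secreted glycoprotein, Gsto1, a glutathione transferase, and the interferon-induced Ifi44 had profiles most like that of Muc1. Likeness was the root-mean-square difference of mean-centred log2 CPM over 12 libraries, which was 0.66, 0.67 and 0.68, where Muc1 itself varied by 1.52. What the interferon genes' level contributes to Muc1 was not tested.

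Muc4 is a very large mucin with domains that can engage the receptor ErbB2. It had no read in the 3 proliferating control libraries. Proliferating knockdown cells had 0, 0 and 7 reads in experiments 5, 7 and 9, quiescent controls 2, 0 and 19, and quiescent knockdown cells 20, 4 and 44. Every quiescent knockdown library held reads and each exceeded the quiescent control of its own experiment, although the groups' ranges overlapped. Against the floor of 3 counts over the group, quiescent controls were at least 7.76-fold higher than proliferating controls, and proliferating knockdown cells at least 2.4-fold. Both bounds rest on the library of experiment 9, which held 19 of the 21 reads in quiescent controls and all 7 in proliferating knockdown cells. In knockdown cells Muc4 was higher with quiescence in 3 of 3 experiments (log2 3.13, SE 1.52, or 3.42, SE 0.72 with the experiment term). It was past the threshold only with that term. The filter's minimum count of 10 was reached only in quiescent libraries. The gene thus entered the tested set through the state where it was high, and its rise is a description. The log2 change was 2.05 without the quiescent knockdown library of experiment 9, and without the proliferating knockdown library of that experiment the reference has no read. Knockdown in quiescent cells gave a log2 change of 1.51 (SE 1.34, adjusted p = 0.74), or 1.83 with the experiment term (adjusted p = 0.139), both by edgeR's test. It ran from 0.43 without the quiescent knockdown library of experiment 9 to 4.09 without the quiescent control library of that experiment.

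Muc20, a small transmembrane mucin, lies on the opposite strand of chromosome 16 from Muc4 (chr16:32777419-32797435 against chr16:32735886-32782391), and the 2 genes share 627 exonic bases. The use of strand in counting is not given in the sources used here, so reads in that stretch cannot be assigned with certainty. Muc20 had 2532 reads to 96 for Muc4. Its level was 7.35, 3.92 and 0.625 CPM in proliferating controls of experiments 5, 7 and 9, and 8.22, 5.84 and 4.42 in proliferating knockdown cells. Quiescent controls had 24.2, 11.4 and 10.9 CPM, and quiescent knockdown cells 28.8, 10.9 and 27.4. All 6 quiescent libraries were above all 6 proliferating ones. In knockdown cells the difference of 1.86 in log2 (SE 0.66) had an adjusted p of 0.072 by edgeR's test, and of 0.0144 with the experiment term (log2 1.89). The log2 change in controls was 1.96, and 2.76 without the proliferating control library of experiment 5. Nearest in profile were Arrb1, a beta-arrestin, Slc5a9, a sugar transporter, and Prr15l, at 0.54, 0.56 and 0.58.

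Ceacam1 is a cell adhesion molecule of the immunoglobulin superfamily that binds copies of itself on neighbouring cells and carries inhibitory motifs in its tail. It is on chromosome 7 (chr7:25461707-25477603, minus strand). Proliferating controls had 3.87, 0.519 and 2.56 CPM in experiments 5, 7 and 9, and proliferating knockdown cells 4.25, 0.596 and 8.03. Quiescent controls reached 44.0, 2.39 and 65.5 CPM, and quiescent knockdown cells 16.7, 16.1 and 41.6. The library of experiment 7 was lowest in all 4 groups, and the quiescent control of that experiment lay within the range of the proliferating cells. Reads from its close relative Ceacam2 came to 8 in all libraries.

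Within experiments, Ceacam1 was 11.4, 4.59 and 25.6-fold higher in quiescent than in proliferating controls (fitted change 16-fold, with an SE of 1.13 on the log2 scale). In knockdown cells it was 3.93, 27 and 5.18-fold higher. The fitted log2 change there was 2.52 (SE 1.05), or 3.03 (SE 0.66) with the experiment term, and the 3 quiescent libraries lay above the 3 proliferating ones. With 1 library left out at a time the log2 change ran from 3.31 to 4.59 in controls and from 1.93 to 3.35 in knockdown cells. Knockdown in quiescent cells had no steady direction: the ratio of knockdown to control was 0.381, 6.75 and 0.635. The fitted log2 change was -0.59 (SE 0.97) without the experiment term and 0.09 (SE 0.60) with it. It was 0.10 without the quiescent control library of experiment 9. Near to it in profile were Atp10b, a lipid flippase, and Dsg3, a desmosomal cadherin, both at 0.96 where Ceacam1 itself varied by 2.15.

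**Figure D4:**
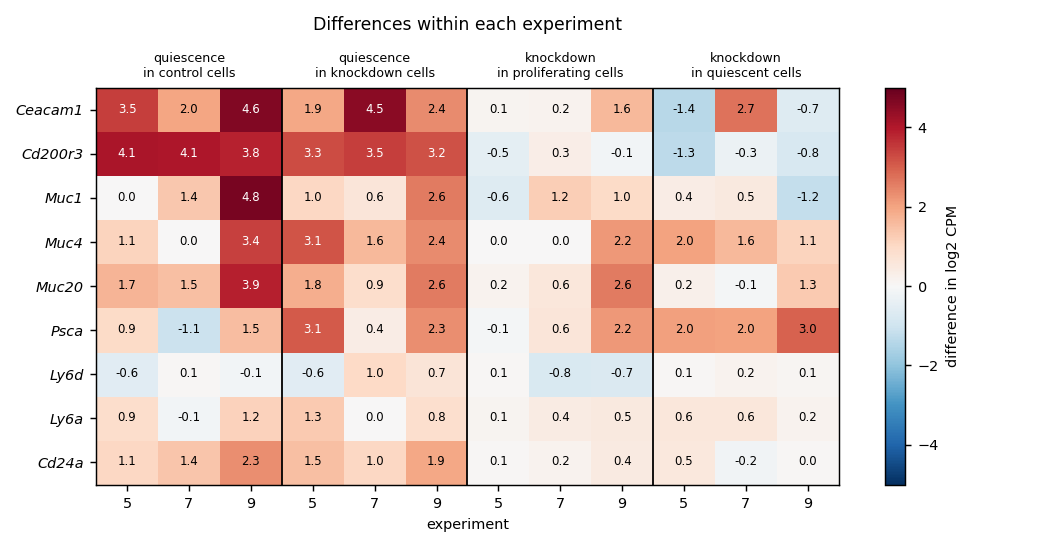
Difference of log2 CPM within each of the 3 experiments, quiescent minus proliferating in each genotype and knockdown minus control in each state, for each gene. The 3 values of Cd200r3 nearly coincide in both quiescence comparisons, while those of Ceacam1, Muc1 and Muc20 are spread.

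Psca, the prostate stem cell antigen, is a small GPI-anchored protein of the Ly6 family known from bladder lining and prostate. Its gene lies in the Ly6 cluster of chromosome 15 (chr15:74714839-74717069, plus strand). In proliferating controls it had 18.5, 18.0 and 5.46 CPM in experiments 5, 7 and 9, and in proliferating knockdown cells 17.5, 27.1 and 25.0. Quiescent controls stood at 35.8, 8.57 and 16.1 CPM, that of experiment 5 above the proliferating range, and quiescent knockdown cells at 149, 35.0 and 126. In experiment 7 the level of the quiescent knockdown library was just below that of the quiescent control of experiment 5, so those 2 groups overlapped.

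Within experiments, Psca was 4.16, 4.09 and 7.83-fold higher in knockdown than in control cells when quiescent. The quiescent controls are also part of the contrast that the rule used. The fitted log2 change was 2.36 (SE 0.63, adjusted p = 0.145 by edgeR's test), and 2.40 (SE 0.57) with the experiment term, where it passed with an adjusted p of 0.0476. DESeq2's Wald test gave 0.00374. Psca was the 1 gene of the 9 with an unadjusted p under 0.05 for this contrast in the fit without the experiment term, and none was called in it, against 0.153% of all tested genes called higher and 0.282% lower. With the term 1 of 9 was called, against 1.59% of all genes.

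Psca also rose with quiescence in knockdown cells, by 8.52, 1.29 and 5.05-fold within experiments 5, 7 and 9 (log2 2.16, SE 0.62, adjusted p = 0.034 by edgeR's test). Leaving out 1 library, the call was lost for 5 of the 6: adjusted p = 0.0905, 0.0833 and 0.0845 without the proliferating knockdown library of experiments 5, 7 and 9, and 0.114 and 0.0988 without the quiescent knockdown library of experiments 5 and 9. In controls the log2 change was 0.53, with ratios of 1.93, 0.477 and 2.95, and -0.16 without the quiescent control of experiment 5. The difference between the genotypes' responses, tested as an interaction, was 1.63 (SE 0.86, adjusted p = 0.9997, edgeR) and positive in 3 of 3 experiments, so a difference in response was not established. Nearest in profile were the ubiquitin ligase Neurl3 (0.53) and the lysosomal membrane gene Gpr137b with its copy Gpr137b-ps (0.70 and 0.61), where Psca itself varied by 1.31.

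The window of 500 kb around the cluster's members on chromosome 15 was chosen after the values were seen. Among its 10 tested genes, knockdown in quiescent cells gave a positive sign for 8, against 52.5% of all tested genes. Their median log2 change was 0.58. None of the 10 passed by edgeR's test without the experiment term, and 2 did with it: Psca and Arc, a neuronal activity gene (log2 1.38, adjusted p = 0.0238 with the term). Over all tested genes 1.59% were called higher with the term.

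Ly6a, also called Sca-1, is a GPI-anchored protein used to mark progenitor cells and is induced by interferon in many tissues. In experiments 5, 7 and 9 it was at 759, 707 and 517 CPM in proliferating controls, and at 831, 936 and 716 in proliferating knockdown cells. Quiescent controls had 1381, 646 and 1156 CPM and quiescent knockdown cells 2070, 943 and 1291. The quiescent library of experiment 7 was the low one in both genotypes. In knockdown cells the quiescent libraries were all above the proliferating ones, by 2.49, 1.01 and 1.80-fold within experiments (log2 0.79, SE 0.32, adjusted p = 0.104, edgeR). That p was 0.0496 without the quiescent knockdown library of experiment 7. With knockdown, Ly6a was higher in 3 of 3 experiments in both states, by 0.32 (SE 0.31, adjusted p = 0.9998) and 0.44 (SE 0.31, adjusted p = 0.657) on the log2 scale, neither of which passed edgeR's test. Ly6a has close relatives in the cluster, of which Ly6e ran at 2584 to 5642 CPM and Ly6c1 at 5.14 to 36 CPM, and how reads shared between them were counted is not given in the sources used here.

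Ly6d, a GPI-anchored protein of squamous and some urothelial cells, was close to the limit of detection. Its mean was 0.529 CPM ± 0.227 (SD, n = 3) in proliferating controls, 0.368 ± 0.234 in proliferating knockdown cells, 0.436 ± 0.192 in quiescent controls and 0.475 ± 0.198 in quiescent knockdown cells. All 4 ranges overlapped, and at this depth no difference was detectable, the log2 change with quiescence in knockdown cells being 0.35 (SE 0.62, adjusted p = 0.733 by edgeR's test).

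Cd24a is a short, heavily glycosylated GPI-anchored protein that acts as a ligand of Siglec receptors and is common on epithelia. Proliferating controls had 1261, 818 and 725 CPM in experiments 5, 7 and 9, and proliferating knockdown cells 1317, 914 and 979. Quiescent controls had 2616, 2113 and 3613 CPM, and quiescent knockdown cells 3740, 1874 and 3710. No quiescent library overlapped the proliferating ones in either genotype. Cd24a rose in knockdown cells by 2.84, 2.05 and 3.79-fold within experiments (log2 1.54, SE 0.31, adjusted p = 0.00699, edgeR). The log2 change in controls was 1.57, with ratios of 2.07, 2.58 and 4.98. The call in knockdown cells was kept when any 1 library was left out, with log2 changes of 1.38 to 1.81. The range in controls was 1.34 to 1.85. Nearest in profile were Mfge8, a secreted bridging protein, Flrt3, an adhesion protein, and Gnb5, a G protein subunit, at 0.22, 0.23 and 0.24 where Cd24a varied by 0.85.

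Cd200r3 had 60 reads in the 3 proliferating control libraries and 948 in the quiescent ones. Its levels were 1.91, 0.981 and 0.511 CPM in proliferating controls of experiments 5, 7 and 9, and 1.34, 1.25 and 0.459 in proliferating knockdown cells. Quiescent controls had 34.6, 18.2 and 8.89 CPM, and quiescent knockdown cells 14.1, 14.8 and 5.10. Experiment 9 was lowest in all 4 groups. The ratio of quiescent to proliferating was similar all the same: 18.2, 18.5 and 17.4 in controls, and 10.5, 11.9 and 11.1 in knockdown cells. The proliferating libraries held only 34, 17 and 9 reads in controls and 23, 21 and 8 in knockdown cells. Counting error therefore limits how closely these ratios can be compared. In knockdown cells the fitted log2 change was 3.47 (SE 0.66, or 0.25 with the experiment term), and 3.12 to 3.82 with 1 library left out.

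With knockdown in quiescent cells, Cd200r3 was lower in 3 of 3 experiments, at 0.406, 0.817 and 0.574 of the control level. The groups overlapped. The fitted log2 change was -0.86 (SE 0.57), or -0.80 (SE 0.20) with the experiment term. The difference between the genotypes' responses was -0.70 in log2 and negative in 3 of 3 experiments. Both use the quiescent control libraries in which the gene was selected for its rise, so they are given without a test. Its relatives Cd200r1, Cd200r2 and Cd200r4 had 3, 16 and 21 reads in all 12 libraries.

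The mast cell and basophil markers were looked at because Cd200r3 is known from those cells. Their summed level was 10.3 to 16 CPM in proliferating controls and 79.5 to 143 in quiescent controls, and 12.2 to 17.6 against 38.7 to 65.3 in knockdown cells. In quiescent controls it was 81.8, 143 and 79.5 CPM in experiments 5, 7 and 9, an order unlike that of Cd200r3. Kit, a receptor kinase, made up most of the sum in each quiescent group, with a mean of 101 CPM ± 36.7 (SD, n = 3) in controls. It rose in knockdown cells from 8.62 CPM ± 5.96 (SD, n = 3) to 46.9 ± 15.8 (log2 2.44, SE 0.46, adjusted p = 0.00472, edgeR), and Mcpt8, a basophil protease, fell (log2 -5.33, adjusted p = 0.00377). Of the 10 markers, Fcer1a, Tpsb2 and Prss34 had no read, and 7 never reached 1 CPM, among them Cpa3 and Ms4a2 with 1 read each. Their part in the level of Cd200r3 was not tested. Genes nearest to Cd200r3 in profile were Tgfb2, a TGF beta ligand (0.68), Kit (0.75) and Clstn2 (0.78), where Cd200r3 varied by 1.98.

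Markers of other cells were low. Of 9 haematopoietic markers in the table, Cd3e was at 0 and 6 never reached 1 CPM, but Csf1r, the receptor of macrophage growth factor, reached 163 CPM. The summed level of the 9 was 15.6 to 33.3 CPM in proliferating controls, 39.7 to 61.9 in quiescent controls, 26.4 to 55.7 in proliferating knockdown cells and 110 to 173 in quiescent knockdown cells, where Csf1r rose (log2 1.81, SE 0.40, adjusted p = 0.011, edgeR). Their part in the surface genes' levels was not tested. Col1a2, Col3a1 and Lum of 10 fibroblast and muscle markers were at 0 and 9 of the 10 never reached 1 CPM, the sum being at most 2.61 CPM. All 8 endothelial markers stayed under 1 CPM, with Emcn and Cldn5 at 0.

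In proliferating cells the hairpin gave no call among the 9 genes by edgeR's test or DESeq2's, and none had an unadjusted p under 0.05 without the experiment term. Over all tested genes 3 were called, 0.0242% lower and 0% higher. Signs were positive for 7 of 9 and the median log2 change was 0.34, or 0.99 without the proliferating control library of experiment 5, which was the highest of its group for 7 of the 9 genes. Ceacam1, Muc20, Ly6a and Cd24a were higher in 3 of 3 experiments, 4 of the 9 against 19.8% of all tested genes, at log2 changes of 0.89, 0.63, 0.32 and 0.20. The ratio was highest in experiment 9 for Muc20 (7.07-fold), Psca (4.58-fold) and Ceacam1 (3.14-fold), where the proliferating controls had their lowest Muc20 and Psca. Knockdown in quiescent cells gave 6 positive signs and a median of 0.16. Over all tested genes 49.5% of signs were positive in proliferating and 52.5% in quiescent cells. The interaction had 0 calls among the 9 by either tool, none with an unadjusted p under 0.05, and a median of -0.10. It had 0% of all genes called by edgeR, though 219 had an unadjusted p under 0.05 and DESeq2 called 6.

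Experiment 7 was often the lowest for these genes in the quiescent state. Its library was the lowest of its group for 7 of the 9 genes in quiescent controls and for 8 of 9 in quiescent knockdown cells, with Cd200r3 as the exception in both and Muc20 also in controls. The share of all tested genes with their lowest value in experiment 7 was not counted, so no trait particular to these genes is read from this. Its total was 16150982 counts in quiescent controls, where experiment 5 had fewer, and 16088988 in quiescent knockdown cells, the smallest of that group.

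The 9 genes did not share 1 profile over the 12 libraries. By the root-mean-square difference of mean-centred log2 CPM, the closest pair was Ly6a and Cd24a at 0.53, and Muc1 and Muc4 stood at 0.90. Ceacam1 and Cd200r3, the pair selected on their rise, differed by 1.84, almost as much as each varied itself (2.15 and 1.98). Cd200r3 and Ly6d were the farthest apart at 2.09.

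Relatives and enzymes came from lists by known function, and counts below are by edgeR's test, higher then lower with quiescence in controls, then in knockdown cells. Of 18 other mucins and mucin-like proteins, 14 were in the table and 4 passed the filter on low counts. Parm1, a mucin-like membrane protein, rose in both (log2 1.33 and 0.96, adjusted p = 0.00151 and 0.00959), and Podxl, podocalyxin, fell in both (log2 -0.69 and -0.92, adjusted p = 0.0267 and 0.00751). Of 26 Ceacam and Psg relatives only 2 were tested. Psg17, named after its values were seen, fell in controls (log2 -2.43, adjusted p = 0.023).

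Of 13 tested Ly6 and uPAR relatives, 1 rose and 1 fell in each genotype. Cd59a, a GPI-anchored inhibitor of complement, rose by 1.28 (SE 0.16, adjusted p = 4.27e-04) and 1.42 (SE 0.16, adjusted p = 4.33e-04) on the log2 scale. Its mean went from 8.54 CPM ± 0.811 (SD, n = 3) to 20.7 ± 2.27 in controls and from 10.1 ± 1.66 to 27.2 ± 1.27 in knockdown cells. Lypd5, scarce and named after its values were seen, fell (log2 -5.70 and -3.96). With the experiment term 3 rose in knockdown cells, against 15.9% of all tested genes. It added the abundant Ly6e (log2 0.48, adjusted p = 0.0205) and the scarce Ly6g6e (log2 1.34, adjusted p = 0.0279). In controls 2 rose with that term, against 16.8%, Ly6e being added (log2 0.45, adjusted p = 0.0251). Of 4 tested genes of the CD200 axis and related checkpoint ligands none passed without that term, none had an unadjusted p under 0.05 and DESeq2 called none. With it Sirpa and Vtcn1 rose in controls and Vtcn1 in knockdown cells (log2 1.77, adjusted p = 0.0255), both named after their values were seen.

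The enzymes that build mucin sugars had calls in both directions. Of 20 tested, 3 rose and 2 fell in controls, and 3 rose and 3 fell in knockdown cells, with medians of -0.05 and -0.18. Over all tested genes 8.33% were called higher and 11.7% lower in controls, and 7.59% and 10.8% in knockdown cells. Fut1, which adds fucose to make the H antigen, rose (log2 1.29 and 1.44, adjusted p = 0.0474 and 0.033). Gcnt3, which branches the chains, fell (log2 -0.84 and -1.01, adjusted p = 0.0185 and 0.00831). Galnt1, which adds the first sugar, fell in controls (log2 -0.92, adjusted p = 0.0211), and the sialyltransferases St3gal2 and St3gal4 fell in knockdown cells (log2 -0.99 and -0.82). Galnt11 and the scarce Galnt14 were the others that rose in both. St3gal4, Galnt11 and Galnt14 were named after their values were seen. With the experiment term 5 rose and 5 fell in controls, and 4 rose and 5 fell in knockdown cells. Over all tested genes that term gave 16.8% higher and 18.5% lower in controls, and 15.9% and 17.2% in knockdown cells.

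Enzymes of the GPI anchor, on which Psca, Ly6a, Ly6d and Cd24a depend, also gave no common direction. Of 28 tested, 2 rose and 1 fell in controls, and 2 rose and 3 fell in knockdown cells, with medians of -0.01 and -0.03. Piga, of the first step, fell (log2 -1.05 and -0.75, adjusted p = 0.0115 and 0.0482). Mppe1, which trims the anchor, rose (log2 1.01 and 0.96, adjusted p = 0.0297 and 0.0371), as did Pigc (log2 0.39 and 0.50, adjusted p = 0.0428 and 0.0162). Pigx and Pigo fell in knockdown cells (log2 -0.52 and -0.46), the last named after its values were seen. With the experiment term 5 rose and 1 fell in controls, against 16.8% and 18.5% of all tested genes. In knockdown cells 5 rose and 4 fell with it, against 15.9% and 17.2%.

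Of 23 tested interferon-stimulated genes, 1 rose in controls, Ddx58 (log2 1.15, adjusted p = 0.0486), and 0 in knockdown cells by edgeR's test without the experiment term, where 2 had an unadjusted p under 0.05 and DESeq2 called 1. With the term 6 and 8 rose, against 16.8% and 15.9% of all tested genes. Among all 94 tested genes of the 7 lists, knockdown gave no call in either state without the term, with 2 and 11 unadjusted p-values under 0.05. DESeq2 called 0 in proliferating and 2 in quiescent cells, Parm1 and Galnt14, and the experiment term gave 0 and 3: Parm1 (log2 -0.89, adjusted p = 0.0306) and Galnt14 (log2 -1.98, adjusted p = 0.00976) lower, and Rsad2 (log2 1.27, adjusted p = 0.0262) higher, the last 2 named after their values were seen.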

How the data were processed

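Raw counts per gene were deposited by the authors in 1 table of 23337 gene symbols and 12 libraries, whole numbers with no normalization. Per the labels' protocols, sequencing followed selection of polyadenylated RNA and a strand-marking library kit. Bowtie, TopHat, HTSeq, DESeq2 and the build mm10 are named in the submitters' processing notes, with no role or version. The analysis ran in edgeR 4.0.16 under R 4.3.3: filterByExpr (minimum count 10), TMM, glmQLFit on 4 group means over 12 libraries, glmQLFTest, and Benjamini-Hochberg adjustment over the 12406 tested genes with a threshold of 0.05. The code was tested on simulated data. Library totals of 14524429 to 21987539 counts set the precision; floors of 3 counts cover counting error only, since PCR copies are not independent molecules. Whether replicates were separate cultures is not stated beyond their experiment number, so p-values measure the spread between these libraries.

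Log2 CPM used a prior count of 2. Differences within an experiment are of these values, and ratios are of CPM. The numbers pair the libraries because the labels give each number as a batch. Same-numbered libraries of different groups deviated from their group means together (mean r = 0.526 over genes, 0.225 to 0.789, 18 pairs). The mean r of -0.259 for 36 pairs of different number is tied to that value by the centring on group means, so it adds no separate evidence. The common coefficient of variation was 0.261 without and 0.161 with a term for the experiment. Exonic lengths, positions and overlaps are from GENCODE release M21 on GRCm38, and promoters from RefSeq on GRCm38.p6.

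Genes named are the 9, the 3 genes most like each (mean log2 CPM of at least 2), the marker genes, and up to 3 per list and comparison with the largest change past the threshold and a mean log2 CPM of at least 2. Some genes that this rule names are not reported here. The members and lists were chosen with earlier results of these data known. Alternatives were DESeq2 1.42.0, a fit with the replicate block, size factors from medians of ratios, a filter at a mean count of 50 or none, only the libraries of a contrast, and leaving out each library. The lists were compared by counts and medians, not by a set test.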

Additional observations from a re-analysis of the deposited data

How the results depend on the processing

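The number of surface genes past the threshold depended on whether the experiment was a term. With the replicate block, which uses the pairing by batch, it was 1 for knockdown in quiescent cells (0 without), 6 for quiescence in controls and 6 in knockdown cells (3 without in each). DESeq2 called 1, 5 and 5. With the block 1.59%, 16.8% and 15.9% of all tested genes were called higher. The quiescence counts with the block include Ceacam1, Cd200r3 and Muc4, whose rises are a description, as is the whole contrast in controls. Counts among listed genes changed with the block too. Of 15 urothelial and epithelial markers it gave 5 higher in controls and 6 in knockdown cells, against 2 in each without it. Over all genes, knockdown in quiescent cells gave 54 calls, 440 with the block and 387 by DESeq2. Quiescence gave 2481, 4374 and 3219 in controls, and 2279, 4096 and 2990 in knockdown cells. The cause was not tested. Leaving out 1 library gave 2 to 4 calls for each quiescence contrast and 0 to 0 for the knockdown contrasts and the interaction. Median changes of the 9 genes ranged from 0.17 to 0.99 for knockdown in proliferating cells, -0.01 to 0.50 in quiescent cells, 1.34 to 2.76 for quiescence in controls, 1.69 to 2.41 in knockdown cells and -0.91 to 0.23 for the interaction.

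Of 568 values of single genes under the alternatives, 514 kept their direction and side of the threshold, 10 lost and 16 gained a call, and 28 changed sign. Ceacam1 with knockdown in quiescent cells turned to 0.09 with the block, and the other 27 came from leaving out 1 library. Their ranges of log2 change were, for knockdown in proliferating cells, -0.51 to 0.44 for Cd200r3 and -0.08 to 1.14 for Muc1. For knockdown in quiescent cells they were -1.18 to 0.10 for Ceacam1, -2.24 to 1.76 for Muc1, -0.27 to 0.53 for Ly6d and -0.01 to 0.42 for Cd24a. For quiescence they were -0.16 to 0.90 for Psca and -0.69 to 0.04 for Ly6d in controls, and -0.06 to 0.83 for Ly6d in knockdown cells. For the interaction they were -2.58 to 1.42 for Muc1, -3.87 to 1.51 for Muc4, -0.91 to 0.40 for Muc20, -0.25 to 0.34 for Ly6a and -0.31 to 0.23 for Cd24a. Depth limits Ly6d and Muc4, whose libraries held at most 13 and 44 reads.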
